A study of Homo sapiens with 9 samples.

Results

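The genes described here are 35 genes listed as targets of the tumour suppressor p53. They were picked by gene symbol from a list that was drawn up with earlier results of these data known. Whether p53 acts on each of them directly was not tested here. The deposited count table holds 34 of them among its 20030 genes, and FAS-AS1, the 35th, was not analysed here. RNA was sequenced from MHCC97L, a human hepatocellular carcinoma (HCC) cell line, and from its drug-resistant lines MHCC97L-Src and MHCC97L-Oxa. MHCC97L-Src is stably resistant to 4 μmol/L saracatinib, an inhibitor of SRC family kinases, and MHCC97L-Oxa is stably resistant to 2 μmol/L oxaliplatin, a platinum drug that damages DNA. The treatment label is none for MHCC97L, saracatinib for MHCC97L-Src and oxaliplatin for MHCC97L-Oxa, and whether drug was present when RNA was harvested is not given in the sources used here. Each line gave 3 libraries, 9 in all, and each resistant line is a single selected line, so that selection by the drug and descent of the line cannot be told apart. The study describes MHCC97L and MHCC97L-Src as compared in independent experiments, without saying whether cultures, extractions or both were repeated, and the labels do not say which libraries came from separate cultures. The p-values therefore measure the spread between these libraries, part of which may be technical. The comparisons ask how far the transcripts of p53 targets in each resistant line lie from those in the parental line, and how far the resistant lines lie from each other.

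p53 is a transcription factor that is held at a low level by the ubiquitin ligase MDM2 and is stabilised by kinases that respond to damaged DNA. It then binds response elements near its target genes, some of which halt the cell cycle, some promote cell death, some repair DNA or adjust metabolism, and some act back on p53 itself. The best known arrest gene is CDKN1A, which encodes p21, an inhibitor of cyclin-dependent kinases, and loss of p53 function is common in HCC.

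The response element of p53 consists of a pair of half-sites. Single half-sites lying before the RefSeq start of members are shown. The half-site search took exact matches of the pattern only, so that a neighbouring half-site with mismatched bases would not be counted. RefSeq promoter windows of 250 bases before to 50 after each start were at hand for 29 members (build GRCh38.p14). Letters of a half-site on either strand occurred in the windows of 4 of the 29 members, or 13.8%, and in those of 8.06% of all genes with a window. The stretches below are written 5′ to 3′ on the strand of the gene, with the half-site in capitals.
PLK2, chr5:58460189-58460238, minus strand: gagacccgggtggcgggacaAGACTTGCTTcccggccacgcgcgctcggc
SESN1, chr6:109009008-109009057, minus strand: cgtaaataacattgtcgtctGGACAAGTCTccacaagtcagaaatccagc
AEN, chr15:88621286-88621335, plus strand: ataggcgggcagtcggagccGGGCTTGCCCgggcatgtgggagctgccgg
FDXR, chr17:74872995-74873025, minus strand: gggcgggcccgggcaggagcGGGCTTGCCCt
The half-site began 132 bases before the start of PLK2, 49 before that of SESN1, 34 before that of AEN and 11 before that of FDXR, counted from the RefSeq start on which each window is set. All 4 lie inside the longer spans that GENCODE gives these genes, whose outer starts differ from those of the windows. A separate search for CATG, any 6 bases and CATG again found 1 of the 29 members, TRIAP1, against 0.472% of all genes, and its match was not wholly before the start. These are matches of letters only, and the binding of p53 was not measured.

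Total counts per library ranged from 16970486 to 18209213. The library of MHCC97L replicate 1 had the largest trend over GC content. Across 12144 genes, its deviation from the mean of the 9 libraries had a Spearman correlation of -0.781 with the GC content of the transcript. Genes poor in GC thus read high in it and genes rich in GC read low. In the other 8 libraries this correlation lay between -0.256, in MHCC97L replicate 3, and 0.698, in MHCC97L-Src replicate 2. With 0.542 in MHCC97L-Src replicate 1, replicates 1 and 2 of that line also had a marked trend, in the other direction. Of the 8 hepatocyte and hepatoma markers, ALB, AFP, TTR and APOB had 0 counts in every library and no marker exceeded 31 counts, while the epithelial keratins KRT8 and KRT18 stood at 563 to 1547 FPKM (fragments scaled to transcript length and library size). The other 3 of the 5 epithelial markers stayed under 1 FPKM in every library, with EPCAM at 0 counts in MHCC97L-Oxa. The labelled tissue, liver, was thus not seen in the transcripts of its hepatocyte markers. Of those 8 markers 1, SERPINA1, was tested and higher in MHCC97L-Oxa, with 14 to 31 counts against 1 in each library of MHCC97L (log2 fold change 4.14, edgeR, adjusted p = 0.0323). It also had more counts in MHCC97L-Src, 22, 9 and 10, but was not tested there against MHCC97L. Between the resistant lines its log2 fold change was -0.42 (MHCC97L-Src against MHCC97L-Oxa, edgeR, adjusted p = 0.686). The 4 leukocyte markers summed to 0.524 to 0.689 FPKM in MHCC97L, 3.32 to 3.64 in MHCC97L-Src and 2.68 to 2.99 in MHCC97L-Oxa, with PTPRC, CD3E and LYZ at 0 counts in every library. CD14 was called higher in both resistant lines (2.58 and 2.24, adjusted p = 0.0236 and 0.0428). The 4 endothelial markers summed to 0.275 to 0.297, 1.69 to 2.06 and 0.137 to 0.175 FPKM, with KDR at 0 counts and CDH5 called higher in MHCC97L-Src (3.30, adjusted p = 0.0139). The 5 fibroblast markers summed to 13.7 to 16.7, 9.49 to 10.4 and 13.8 to 15.5 FPKM. The part of these markers in the results below was not tested, and all were named after their values were seen.

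None of the members passed the test in any comparison. With edgeR's quasi-likelihood test and Benjamini-Hochberg adjustment over all genes tested, 0 of the 30 members tested had an adjusted p under 0.05 in MHCC97L-Src against MHCC97L, where 2.13% of all genes did. The counts were likewise 0 of 30 in MHCC97L-Oxa against MHCC97L, with 0.953% of all genes, and 0 of 30 in MHCC97L-Src against MHCC97L-Oxa, with 4.64% of all genes. On simulated counts, the same fit recovered 4 of 100 genes with an absolute log2 change of 1 in each comparison with MHCC97L. With a change of 2 it recovered 54 of 100 in MHCC97L-Src and 57 of 100 in MHCC97L-Oxa. Between the resistant lines it recovered 89 of 100 and 100 of 100. The 0 calls against MHCC97L thus do not show that the members were unchanged. The simulation gave all genes the same dispersion, changed only genes above a minimum level and held no trend over GC content. Its rates are therefore not those of the members themselves. At an unadjusted p under 0.05 there were 7, 6 and 6 members, or 23.3%, 20% and 20%, against 29.5%, 22.4% and 19.5% of all genes. DESeq2's Wald test called 3 members in MHCC97L-Src (CCNG1, PLK2 and RRM2B, all lower), 3 in MHCC97L-Oxa (BTG2 and CDKN1A higher, PLK2 lower) and 0 between the resistant lines, where it called 17.6%, 7.4% and 7% of all genes. By edgeR without MHCC97L replicate 1, 1 member was called in MHCC97L-Src and 10 in MHCC97L-Oxa, beside 5.52% and 18.5% of all genes. Without MHCC97L replicate 2, the counts were 10 and 6, beside 27.8% and 22.1% of all genes.

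Over the 30 tested members the median log2 fold change was -0.24 in MHCC97L-Src, beside -0.16 over all genes, and 0.02 in MHCC97L-Oxa, beside -0.19. Positive values were 14 and 15 of 30 and negative ones 16 and 15, where 57.3% and 60.8% of all genes were negative.

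A looser rule, an unadjusted p under 0.05 together with an absolute log2 fold change over 1, picked 5 members that were lower in MHCC97L-Src (BLOC1S2, CCNG1, MDM2, PLK2 and RRM2B) and 0 that were higher. These were 16.7% of the 30, where 18.9% of all genes were lower and 5.74% higher by the same rule. In MHCC97L-Oxa it picked CDKN1A and PLK3 as higher, where 4.63% of all genes were, and PLK2 as lower, where 11.5% of all genes were. Between the resistant lines it picked 0 members and 4.01% of all genes.

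Per transcript length, CDKN1A was the most abundant member in each line, with 119 ± 4.6 FPKM (SD, n = 3) in MHCC97L-Oxa, 91.4 ± 13.8 in MHCC97L-Src and 55.2 ± 13.8 in MHCC97L. PERP, TRIAP1 and GADD45A followed in MHCC97L with means of 31.9, 26 and 23.1 FPKM, and their libraries overlapped, so that their order was not set apart by the spread. In MHCC97L-Src and MHCC97L-Oxa the next in order was GADD45A, with 29.2 ± 1.94 and 36.3 ± 1.87 FPKM, and PERP had the same rounded mean of 36.3 ± 7.36 in MHCC97L-Oxa. At the other end, TP53INP1 and CYFIP2 had means of 0.23 and 0.124 FPKM in MHCC97L. SPATA18 had 0 counts in every library, which allows up to 3 counts, or 0.165 to 0.177 CPM (counts per 1e6 counted reads). RPRM had 0 counts in all but MHCC97L-Src replicates 2 and 3, with 3 and 2 counts. EDA2R and TNFRSF10C, receptors of the tumour necrosis factor family, had 0 to 5 and 0 to 8 counts. These 4 genes stayed below the filter on low counts and were not tested.

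The members grouped under cell cycle arrest and growth gave both the highest and the lowest differences. The group is not made of arrest genes alone, since it holds SERTAD1, a regulator of CDK4. In MHCC97L-Oxa, 6 of the 8 tested had a positive log2 fold change, with a median of 0.74 beside -0.19 over all genes. In MHCC97L-Src, 5 of 8 were positive, with a median of 0.44 beside -0.16 over all genes.

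CDKN1A (NCBI gene 1026, chr6:36676460-36687339, plus strand, GRCh38) had 2127, 3533 and 3389 counts in MHCC97L replicates 1 to 3. The counts were 6384, 6690 and 6349 in MHCC97L-Oxa and 4660, 5667 and 4343 in MHCC97L-Src. The 3 lines did not overlap, with MHCC97L lowest and MHCC97L-Oxa highest. The log2 fold change against MHCC97L was 1.09 ± 0.26 (SE) in MHCC97L-Oxa (edgeR, adjusted p = 0.102) and 0.81 ± 0.30 in MHCC97L-Src (adjusted p = 0.13). Without MHCC97L replicate 1 these were 0.95 ± 0.07 (adjusted p = 0.00117) and 0.61 ± 0.20 (adjusted p = 0.12), and without MHCC97L replicate 2 they were 1.34 (adjusted p = 0.0162) and 1.03 (adjusted p = 0.0458). Without MHCC97L replicate 3 they were 1.18 (adjusted p = 0.215) and 0.90 (adjusted p = 0.164). Leaving out 1 library of the resistant line gave adjusted p from 0.401 to 0.457 in MHCC97L-Oxa and from 0.224 to 0.402 in MHCC97L-Src. A two-sided exact permutation test over 3 against 3 libraries gave p = 0.1 in each comparison of CDKN1A, the smallest that this design allows.

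PLK2, a stress-responsive polo-like kinase (NCBI gene 10769, chr5:58453982-58460260, minus strand), stood at the other extreme. It had 968, 228 and 243 counts in MHCC97L, against 77, 80 and 73 in MHCC97L-Oxa and 35, 25 and 78 in MHCC97L-Src. All libraries of the resistant lines were below all of MHCC97L, and MHCC97L replicate 1 held 4.16 times the mean CPM of replicates 2 and 3. Its log2 fold change was -3.26 ± 0.69 in MHCC97L-Src (edgeR, adjusted p = 0.0509) and -2.60 ± 0.58 in MHCC97L-Oxa (adjusted p = 0.0893). Leaving out MHCC97L replicate 1 gave -2.28 ± 0.46 (adjusted p = 0.0232) and -1.57 ± 0.20 (adjusted p = 0.00559). PLK2 was thus lower without the library that stood apart as well, by a smaller amount.

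PLK3, another polo-like kinase of the stress response (NCBI gene 1263, chr1:44800225-44805990, plus strand), had 86, 179 and 151 counts in MHCC97L. It had 271, 287 and 291 in MHCC97L-Oxa and 211, 242 and 248 in MHCC97L-Src, again with no overlap between lines. Its log2 fold change was 1.01 ± 0.40 in MHCC97L-Oxa (edgeR, adjusted p = 0.209) and 0.85 ± 0.43 in MHCC97L-Src (adjusted p = 0.22), and without MHCC97L replicate 1 or 2 the former was 0.82 or 1.36 (adjusted p = 0.032 or 0.0451). BTG2, an antiproliferative regulator of mRNA decay chosen here after its values were seen, had 394, 474 and 506 counts in MHCC97L, against 796, 898 and 787 in MHCC97L-Oxa and 759, 667 and 693 in MHCC97L-Src. Both resistant lines were above MHCC97L in all libraries. The log2 fold change of BTG2 was 0.85 ± 0.25 in MHCC97L-Oxa (adjusted p = 0.166) and 0.73 ± 0.29 in MHCC97L-Src (adjusted p = 0.139), the former 0.80 without MHCC97L replicate 1 (adjusted p = 0.00589). GADD45A, a growth arrest gene induced by damaged DNA, also chosen after its values were seen, had 466 to 576 counts in MHCC97L, against 784 to 858 in MHCC97L-Oxa and 587 to 697 in MHCC97L-Src. Its log2 fold changes were 0.66 ± 0.24 in MHCC97L-Oxa (adjusted p = 0.199) and 0.40 ± 0.27 in MHCC97L-Src (adjusted p = 0.334), the former 0.72 without MHCC97L replicate 1 (adjusted p = 0.0173). Without MHCC97L replicate 3 or any 1 library of MHCC97L-Oxa, PLK3, BTG2 and GADD45A were not called in MHCC97L-Oxa (adjusted p from 0.226 to 0.474).

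The cyclin G genes differed from these. CCNG1, a partner of phosphatase 2A and of MDM2 (NCBI gene 900, chr5:163437569-163446151, plus strand), had 1792, 265 and 782 counts in MHCC97L, against 334, 496 and 715 in MHCC97L-Oxa and 285, 244 and 336 in MHCC97L-Src. The lines overlapped, because MHCC97L replicate 2 was as low as MHCC97L-Src while replicate 1 was higher than all other libraries. Against MHCC97L, its log2 fold change reached -1.56 ± 0.56 in MHCC97L-Src (edgeR, adjusted p = 0.126) and -0.83 ± 0.59 in MHCC97L-Oxa (adjusted p = 0.386). Without MHCC97L replicate 1 it was -0.74 (adjusted p = 0.286) and 0.05 (adjusted p = 0.96), and without MHCC97L replicate 2 it was -1.93 in MHCC97L-Src (adjusted p = 0.00435). CCNG2, an atypical cyclin linked to arrest, had 588, 189 and 139 counts in MHCC97L, against 708, 496 and 361 in MHCC97L-Oxa and 359, 205 and 615 in MHCC97L-Src. Its log2 fold changes were 0.48 ± 0.58 in MHCC97L-Src and 0.81 ± 0.54 in MHCC97L-Oxa (adjusted p = 0.589 and 0.351). With MHCC97L replicate 1 left out they were 1.32 (adjusted p = 0.108) and 1.70 (adjusted p = 0.0177). Leaving out any other library gave no call of CCNG2 in MHCC97L-Oxa (adjusted p from 0.395 to 0.677). SERTAD1, a regulator of CDK4, had 99 to 203 counts over the 9 libraries, and neither difference from MHCC97L had an unadjusted p under 0.05.

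**Figure D1:**
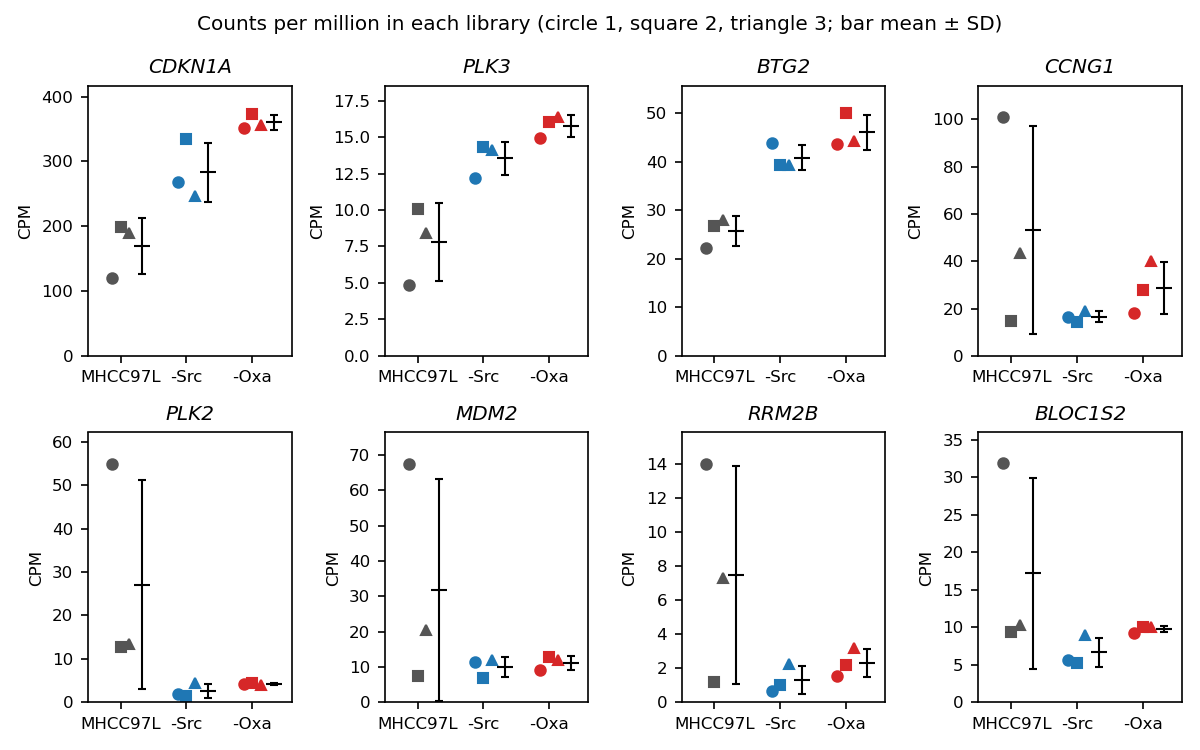
CPM of CDKN1A, PLK3, BTG2, CCNG1, PLK2, MDM2, RRM2B and BLOC1S2 in each of the 9 libraries (circle, square and triangle for replicates 1, 2 and 3), with the mean ± SD of each line in black; every axis starts at 0. CDKN1A, PLK3 and BTG2 lie higher in all libraries of the resistant lines, PLK2 lies lower in all of them, and the circle of MHCC97L is the highest point for CCNG1, PLK2, MDM2, RRM2B and BLOC1S2.

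The members that act back on p53 had low median log2 fold changes in both comparisons with MHCC97L, -1.04 for MHCC97L-Oxa and -1.17 for MHCC97L-Src, with 3 of the 4 negative in each. MDM2, the ubiquitin ligase of p53 (NCBI gene 4193, chr12:68808176-68850686, plus strand), had 1189, 132 and 371 counts in MHCC97L. It had 165, 229 and 211 in MHCC97L-Oxa and 198, 116 and 209 in MHCC97L-Src. MHCC97L replicate 2 thus lay among the libraries of the resistant lines, and replicates 1 and 3 lay above them all. The log2 fold change of MDM2 was -1.54 ± 0.67 in MHCC97L-Src (edgeR, adjusted p = 0.167) and -1.43 ± 0.67 in MHCC97L-Oxa (adjusted p = 0.238). Without MHCC97L replicate 1 it was -0.42 ± 0.43 and -0.26 ± 0.42 (adjusted p = 0.613 and 0.711), and without MHCC97L replicate 2 it was -1.94 and -1.80 (adjusted p = 0.0105 and 0.0224). The size of the difference for MDM2 thus rested on replicate 1 of MHCC97L, and its call on whether replicate 2 was kept.

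PPM1D, the phosphatase WIP1 that removes activating phosphates from p53, had 604, 142 and 153 counts in MHCC97L, against 131, 179 and 121 in MHCC97L-Oxa and 148, 74 and 179 in MHCC97L-Src. Its log2 fold changes were -1.04 ± 0.61 and -1.01 ± 0.57 in MHCC97L-Src and MHCC97L-Oxa (adjusted p = 0.271 and 0.288), and without MHCC97L replicate 1 they were -0.06 and 0.01. ZMAT3, an RNA-binding regulator of splicing, had 349, 57 and 102 counts in MHCC97L and 48 to 103 counts in the 6 other libraries. Its log2 fold changes were -1.31 ± 0.65 and -1.07 ± 0.64 (adjusted p = 0.206 and 0.31), and they were -0.26 and 0.02 without MHCC97L replicate 1 and -1.64 and -1.38 without replicate 2 (adjusted p = 0.036 and 0.0818). Both genes, like MDM2, were highest in MHCC97L replicate 1 and overlapped between lines among the other libraries. FBXO22, a ubiquitin ligase subunit, had 869 to 1267 counts in MHCC97L, against 1373 to 1578 in MHCC97L-Oxa and 896 to 1386 in MHCC97L-Src.

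Of the 12 tested members that take part in cell death or survival, 6 were positive and 6 negative in MHCC97L-Src, with a median log2 fold change of -0.08. In MHCC97L-Oxa, 7 were positive and 5 negative, with a median of 0.24. The smallest p in MHCC97L-Src belonged to BLOC1S2, a subunit of a complex of lysosome biogenesis (NCBI gene 282991, chr10:100273280-100286712, minus strand), with 563, 166 and 186 counts in MHCC97L, against 169, 179 and 179 in MHCC97L-Oxa and 99, 90 and 157 in MHCC97L-Src. Its log2 fold change was -1.27 ± 0.53 in MHCC97L-Src (edgeR, adjusted p = 0.154) and -0.76 ± 0.48 in MHCC97L-Oxa (adjusted p = 0.339). These became -0.52 and 0.05 without MHCC97L replicate 1, and the former was -1.47 without replicate 2 (adjusted p = 0.043).

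TP53I3, a quinone oxidoreductase also known as PIG3 and chosen after its values were seen, had 772, 1142 and 1302 counts in MHCC97L, against 815, 734 and 814 in MHCC97L-Oxa and 602, 716 and 596 in MHCC97L-Src. MHCC97L-Src lay below MHCC97L in all libraries, and MHCC97L-Oxa overlapped it only through replicate 1. The log2 fold changes were -0.64 ± 0.31 and -0.46 ± 0.28 (adjusted p = 0.206 and 0.316), the latter -0.59 without MHCC97L replicate 1 (adjusted p = 0.0125). Leaving out any other library gave no call of TP53I3 in MHCC97L-Oxa (adjusted p from 0.537 to 0.628). APAF1, the core of the apoptosome, had 665, 74 and 182 counts in MHCC97L and 58 to 135 in the other lines, with log2 fold changes of -1.39 ± 0.72 in MHCC97L-Src and -1.39 ± 0.69 in MHCC97L-Oxa (adjusted p = 0.225 and 0.254). Without MHCC97L replicate 1 those of APAF1 were -0.17 and -0.12, and without replicate 2 they were -1.78 and -1.75 (adjusted p = 0.0283 and 0.0334). TNFAIP8, an inhibitor of apoptosis, showed the same order, with 672 counts in MHCC97L replicate 1 and 57 to 202 in the 8 other libraries.

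CYFIP2, a subunit of the WAVE complex, had 30 to 36 counts in MHCC97L, against 53 to 82 in MHCC97L-Oxa and 29 to 61 in MHCC97L-Src, with a log2 fold change of 0.94 ± 0.38 in MHCC97L-Oxa (adjusted p = 0.213) and 0.56 ± 0.43 in MHCC97L-Src (adjusted p = 0.397). AEN, an apoptosis-enhancing nuclease, PHLDA3, an inhibitor of AKT, PIDD1, a scaffold that activates caspase-2, and TP53I11 had all libraries of MHCC97L-Oxa above those of MHCC97L. Their lowest values in MHCC97L-Oxa were 1400, 1181, 387 and 1005 counts, and their highest in MHCC97L were 1347, 1012, 356 and 887. TP53I13 did so in MHCC97L-Src, with 621 to 734 counts against 408 to 619. PERP, a desmosomal membrane protein, ranged from 976 to 4078 counts and TRIAP1, an inhibitor of apoptosis, from 245 to 590, with overlapping lines.

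Of the 6 tested members of metabolism, repair and autophagy, 4 were negative in MHCC97L-Src and 5 in MHCC97L-Oxa, with median log2 fold changes of -0.68 and -0.24. RRM2B, the p53-inducible subunit of ribonucleotide reductase (NCBI gene 50484), had 247, 21 and 131 counts in MHCC97L, against 28, 39 and 57 in MHCC97L-Oxa and 12, 17 and 40 in MHCC97L-Src. MHCC97L replicate 2 lay among the resistant libraries, and replicates 1 and 3 above them. Against MHCC97L, its log2 fold change reached -2.40 ± 0.82 in MHCC97L-Src (edgeR, adjusted p = 0.119) and -1.63 ± 0.76 in MHCC97L-Oxa (adjusted p = 0.238). Without MHCC97L replicate 1 it was -1.60 ± 0.73 and -0.80 ± 0.74, and without replicate 2 it was -2.83 and -2.05 (adjusted p = 0.00343 and 0.0179).

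SESN1, a sestrin that restrains mTORC1, had 401, 52 and 111 counts in MHCC97L, against 101, 120 and 79 in MHCC97L-Oxa and 47, 23 and 102 in MHCC97L-Src. FDXR, which passes electrons to mitochondrial cytochromes P450, went the other way, with 202 to 363 counts in MHCC97L, against 430 to 510 in MHCC97L-Oxa and 293 to 359 in MHCC97L-Src. DRAM1, a lysosomal membrane protein of autophagy, had 387 to 1836 counts, ACER2, a ceramidase of the Golgi, 14 to 64, and TP53INP1, a cofactor of p53 and of autophagy, 1 to 48. These 3 genes overlapped between all lines and were highest in MHCC97L replicate 1.

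**Figure D2:**
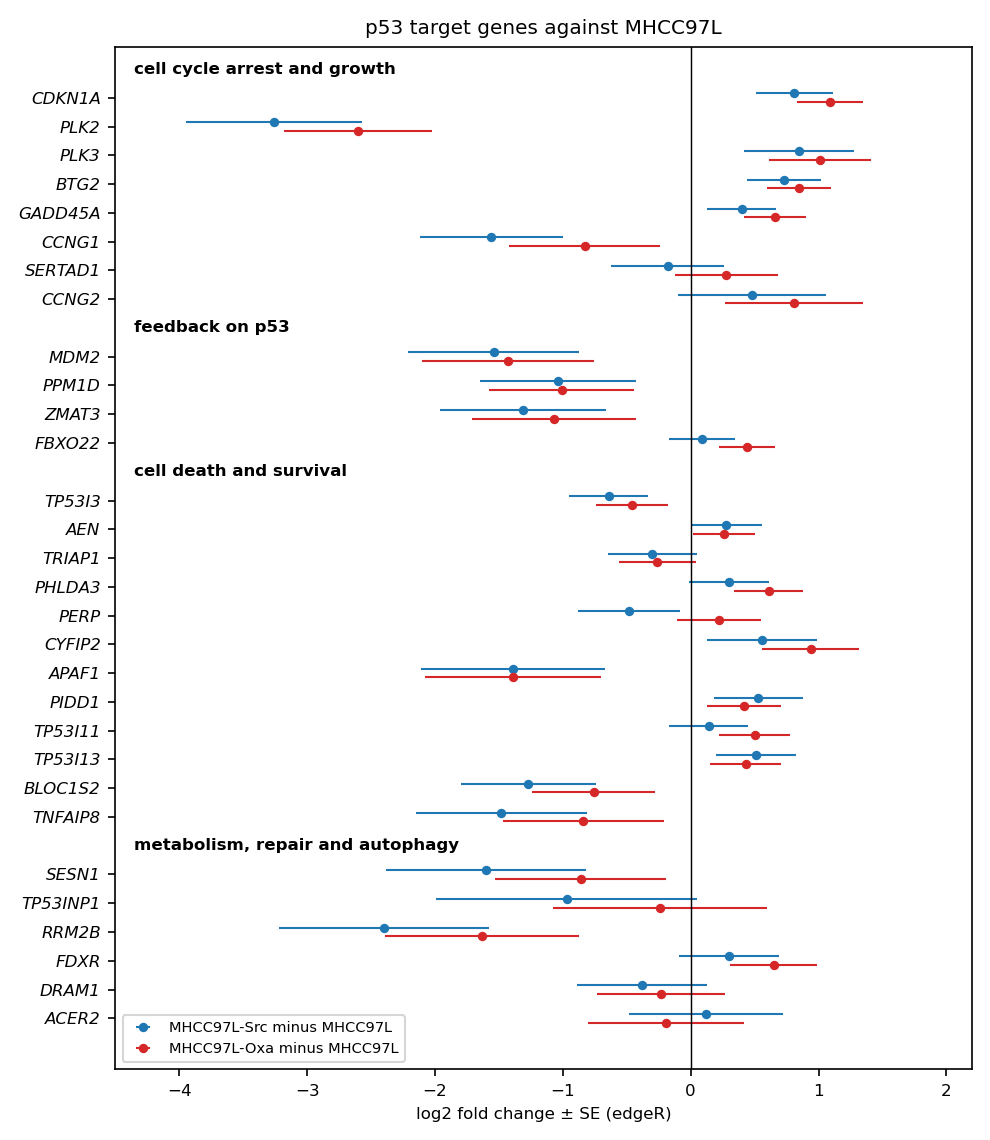
Log2 fold changes of the 30 tested members against MHCC97L from edgeR, with standard errors, for MHCC97L-Src (blue) and MHCC97L-Oxa (red), grouped by the role of the gene. PLK2 is lowest in both lines, at -3.26 and -2.60, and CDKN1A is highest in MHCC97L-Oxa, at 1.09; both lines share the libraries of MHCC97L, so that their points are not independent.

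By overlap of libraries on the CPM scale, 5 members lay wholly above MHCC97L in MHCC97L-Src (BTG2, CDKN1A, GADD45A, PLK3 and TP53I13), which is 16.7% beside 18.3% of all genes. The 3 members wholly below it were BLOC1S2, PLK2 and TP53I3, beside 12.2% of all genes. In MHCC97L-Oxa, 11 members lay wholly above MHCC97L (AEN, BTG2, CDKN1A, CYFIP2, FBXO22, FDXR, GADD45A, PHLDA3, PIDD1, PLK3 and TP53I11), or 36.7% beside 19.1% of all genes. PLK2 was the 1 member wholly below, beside 10.5% of all genes.

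Between the resistant lines the members leaned one way. In MHCC97L-Src against MHCC97L-Oxa, 26 of 30 log2 fold changes were negative, beside 51.9% of all genes. The median of the members was -0.30 beside -0.02 over all genes. All 8 tested genes of arrest and growth were among the negative ones. Libraries did not overlap for 8 members, all lower in MHCC97L-Src (BLOC1S2, CDKN1A, FDXR, GADD45A, PHLDA3, PLK3, SERTAD1 and TP53I11), beside 14.4% of all genes, and for 0 members higher in MHCC97L-Src, beside 13.2% of all genes. The differences were small: CDKN1A had a log2 difference of -0.28 ± 0.15 (edgeR, adjusted p = 0.317), TP53I11 of -0.37 ± 0.14 (adjusted p = 0.182) and PHLDA3 of -0.31 ± 0.14 (adjusted p = 0.266). CCNG1, at -0.74 ± 0.26 (adjusted p = 0.145), and PERP, at -0.69 ± 0.27 (adjusted p = 0.189), differed most among those with an unadjusted p under 0.05. Leaving out MHCC97L-Src replicate 3 gave 5 calls (BLOC1S2, FBXO22, PERP, PLK2 and SESN1) and leaving out replicate 2 gave 3 (CDKN1A, PHLDA3 and TP53I11), beside 13.3% and 8.51% of all genes.

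The GC content of a member's transcript, which ranged from 36.4% in RRM2B to 66% in PIDD1, moved with its difference from MHCC97L. Of the 15 members with a GC content below the median of 47.1%, 13 were negative in MHCC97L-Src and 12 in MHCC97L-Oxa, with median log2 fold changes of -1.27 and -0.83. Of the 15 at or above it, 3 were negative in each line, with medians of 0.30 and 0.50. Across the 30 members, Spearman's rho between the log2 fold change and the GC content was 0.568 in MHCC97L-Oxa and 0.669 in MHCC97L-Src, beside 0.63 and 0.693 across all genes with a known GC content. In MHCC97L-Src against MHCC97L-Oxa, rho was 0.453 across the members and 0.447 across all genes. There, 15 of the 15 members below the median GC content and 11 of the 15 others were negative. These are descriptions, since all points share the same 6 libraries. MHCC97L replicate 1 was the highest of the 9 libraries for 15 of the 30 members (50%, beside 44.2% of all genes) and the lowest for 10 (33.3%, beside 32.2%). MHCC97L-Src replicate 2 was the lowest for 12 members (40%, beside 33.9%).

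**Figure D3:**
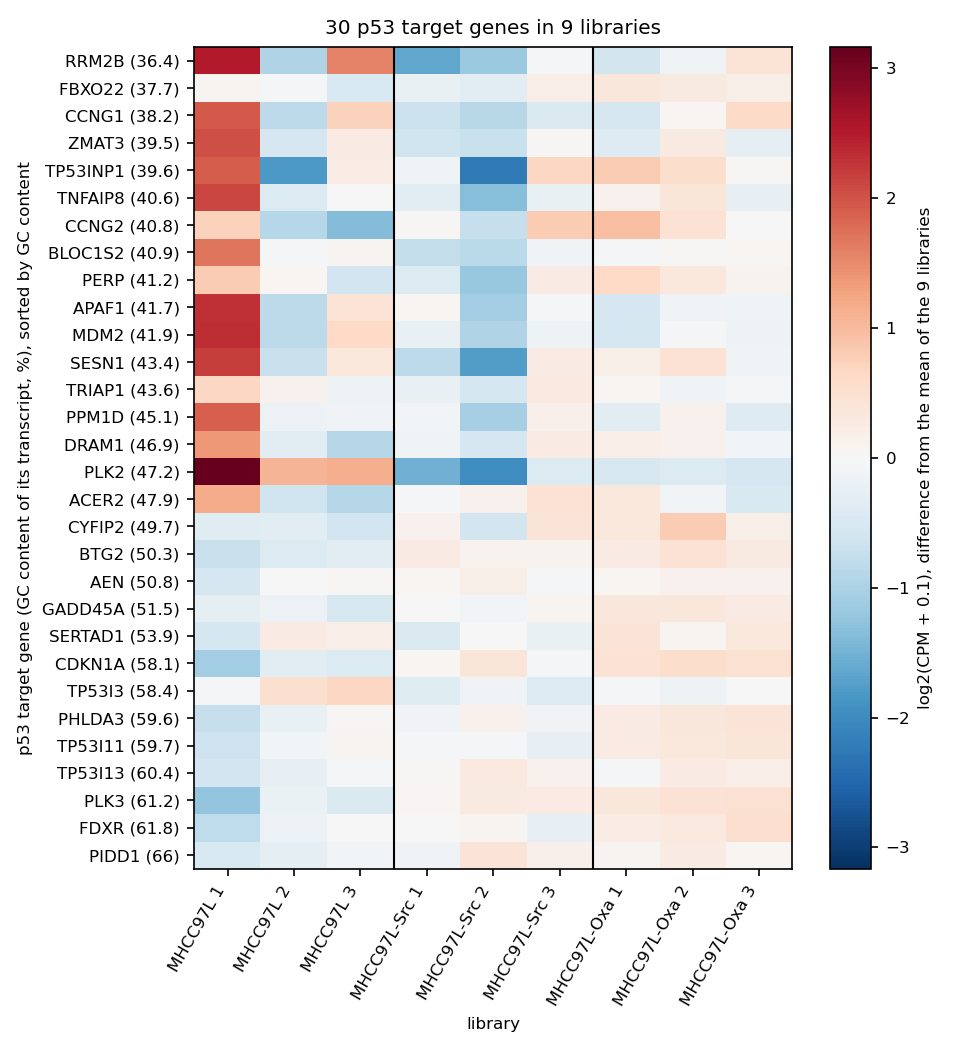
Values of log2(CPM + 0.1) minus their mean over the 9 libraries for the 30 tested members, sorted from low to high GC content of the transcript; red is above the mean and blue below. MHCC97L replicate 1 is red for most members below 48% GC and blue for most above it, while PLK2, at 47.2% GC, is red in all 3 libraries of MHCC97L and TP53I3, at 58.4%, is red in replicates 2 and 3.

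Counts were therefore also fitted with an offset for each library that removes its trend over GC content and transcript length. In this corrected fit, rho across the members was 0.0857 in MHCC97L-Oxa and -0.0443 in MHCC97L-Src. In MHCC97L-Oxa, 5 members rose with an adjusted p under 0.05 (BTG2, CCNG2, CDKN1A, CYFIP2 and PLK3), or 16.7% of 30 beside 6.51% of all genes, and 2 fell (PLK2 and TP53I3), beside 6.49%. In MHCC97L-Src, CCNG2 rose, beside 5.53% of all genes, and PLK2 and TP53I3 fell, beside 5.17%. Between the resistant lines, 0 members were higher in MHCC97L-Src, beside 4.52% of all genes, and 4 were lower (CDKN1A, FDXR, PHLDA3 and TP53I11), or 13.3% beside 5.17%.

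The corrected log2 fold change of CDKN1A was 0.83 ± 0.08 in MHCC97L-Oxa (edgeR, adjusted p = 0.00357), 0.42 ± 0.11 in MHCC97L-Src (adjusted p = 0.064) and -0.41 ± 0.08 between the resistant lines (adjusted p = 0.0207). PLK2 fell in both lines, with -2.23 in MHCC97L-Oxa and -2.86 in MHCC97L-Src (adjusted p = 0.016 and 0.0124), and so did TP53I3, with -0.75 and -1.07 (adjusted p = 0.0106 and 0.0043). CCNG2 stood at 1.74 and 1.60 (adjusted p = 0.0441 and 0.0484). The corrected values of MDM2 were -0.27 ± 0.25 in MHCC97L-Oxa and -0.13 ± 0.26 in MHCC97L-Src, and those of CCNG1 were 0.14 and -0.24. The negative medians of the feedback genes moved to -0.08 and 0.03. With the correction, 23 of 30 members were positive in MHCC97L-Oxa, where 15 were without it, and 17 in MHCC97L-Src, where 14 were. Over all genes, 5229 of 11964 were positive in MHCC97L-Oxa and 5539 of 11943 in MHCC97L-Src with the correction. In MHCC97L-Src against MHCC97L-Oxa, 23 of 30 members were negative with it, where 26 were without it, beside 5458 of 11899 genes. Their median there was -0.29 with the correction, beside 0.03 over all genes. The correction moved the median of all genes from -0.19 to -0.08 in MHCC97L-Oxa and from -0.16 to -0.05 in MHCC97L-Src, and that of the members to 0.19 and 0.10. The part of GC content in the uncorrected values was not tested beyond this fit, and the correction assumes that most genes of like GC content do not differ between libraries.

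**Figure D4:**
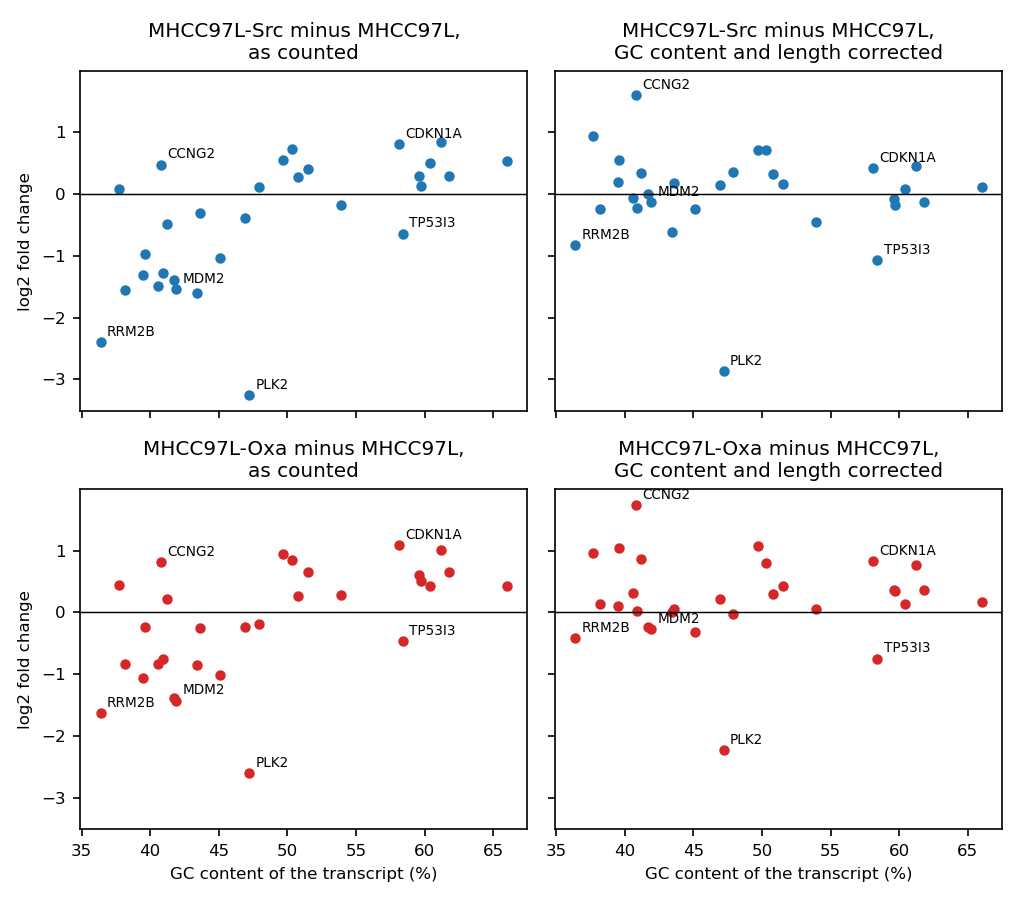
Log2 fold change of the 30 members against MHCC97L (vertical axis) over the GC content of the transcript in percent (horizontal axis), from the counts as deposited (left) and with the offsets for GC content and length (right), for MHCC97L-Src (top) and MHCC97L-Oxa (bottom). On the left the points rise with GC content, with rho of 0.669 and 0.568; on the right rho is -0.0443 and 0.0857, while PLK2 and TP53I3 remain below 0 and CDKN1A above it.

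Among 32 other p53 target genes outside the members, 29 were tested. With the counts as deposited 2 rose and 0 fell in each resistant line (edgeR, adjusted p under 0.05). In either direction together, 2.13% of all genes were called in MHCC97L-Src and 0.953% in MHCC97L-Oxa. At an unadjusted p under 0.05 there were 11 of the 29 in MHCC97L-Src and 9 in MHCC97L-Oxa, beside 29.5% and 22.4% of all genes. DESeq2 called 7 and 6, beside 17.6% and 7.4%. With the correction 3 rose and 2 fell in MHCC97L-Src, and 6 rose and 2 fell in MHCC97L-Oxa. Those that rose were BBC3, GDF15 and SESN2 in MHCC97L-Src and BBC3, DDIT4, GDF15, IER5, SESN2 and STEAP3 in MHCC97L-Oxa, and those that fell were STEAP3 and TIGAR in MHCC97L-Src and CES2 and SFN in MHCC97L-Oxa. These counts of 29 stand beside 5.53% and 6.51% of all genes that rose and 5.17% and 6.49% that fell. With the counts as deposited the 2 were GDF15 and BTG1 in MHCC97L-Src, and GDF15 and BBC3 in MHCC97L-Oxa. The median log2 fold change of the list was 0.14 in MHCC97L-Oxa and 0.00 in MHCC97L-Src, beside -0.19 and -0.16 over all genes. GDF15, a secreted stress cytokine, had 214, 255 and 250 counts in MHCC97L, against 866, 922 and 824 in MHCC97L-Oxa and 1390, 1699 and 1580 in MHCC97L-Src. Its log2 fold change was 2.81 ± 0.28 in MHCC97L-Src (edgeR, adjusted p = 0.00597) and 1.85 ± 0.26 in MHCC97L-Oxa (adjusted p = 0.0271). The lines did not overlap, and MHCC97L-Src was higher than MHCC97L-Oxa by 0.95 ± 0.14 (adjusted p = 0.00437), a call lost with all 9 libraries in one fit (adjusted p = 0.0819). The rises were 2.73 and 1.83 without MHCC97L replicate 1, which had the lowest count.

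BBC3, which encodes the pro-apoptotic protein PUMA, had 79, 98 and 93 counts in MHCC97L, against 335, 433 and 364 in MHCC97L-Oxa and 238, 256 and 250 in MHCC97L-Src. It rose by 2.06 ± 0.34 in MHCC97L-Oxa (edgeR, adjusted p = 0.039), and its difference in MHCC97L-Src was 1.57 ± 0.39 (adjusted p = 0.0807). BTG1, a relative of BTG2, had 3612, 3571 and 2412 counts in MHCC97L, against 7196, 6098 and 5283 in MHCC97L-Oxa and 7759, 5409 and 10198 in MHCC97L-Src. It rose by 1.37 ± 0.27 in MHCC97L-Src (adjusted p = 0.0416), and its difference in MHCC97L-Oxa was 0.95 ± 0.23 (adjusted p = 0.109). The call of GDF15 in MHCC97L-Oxa was lost without MHCC97L replicate 3 or without any 1 library of MHCC97L-Oxa (adjusted p from 0.127 to 0.231), as was that of BBC3 in MHCC97L-Oxa (adjusted p from 0.157 to 0.312). The call of BTG1 in MHCC97L-Src was lost without MHCC97L replicate 3 or without any 1 library of MHCC97L-Src (adjusted p from 0.0948 to 0.174). It was also lost with the correction for GC content and length, at 2.13 (adjusted p = 0.0647), and in 10 of 18 alternatives in all. BBC3 in MHCC97L-Src stood at 0.96 with the correction and was then called (adjusted p = 0.026).

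**Figure D5:**
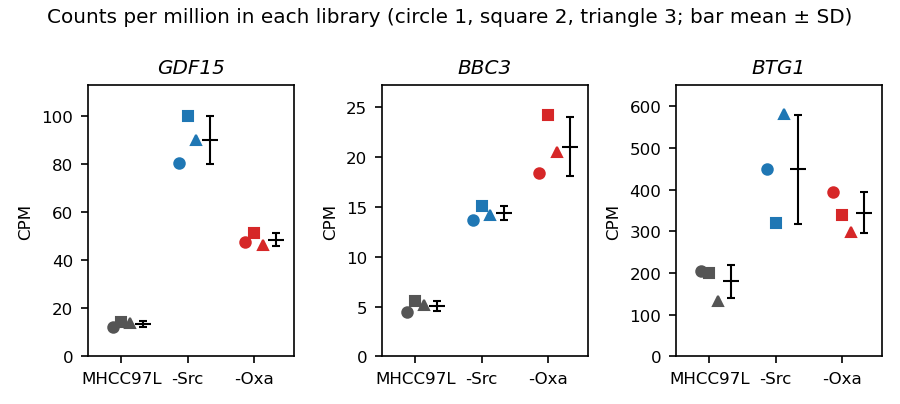
CPM of GDF15, BBC3 and BTG1 in each library (circle, square and triangle for replicates 1, 2 and 3), with the mean ± SD of each line in black; every axis starts at 0. GDF15, BBC3 and BTG1 are higher in all libraries of both resistant lines than in MHCC97L.

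Of 20 relatives and regulators of p53, 19 were tested and 0 passed the test against MHCC97L in either line (edgeR, adjusted p under 0.05). At an unadjusted p under 0.05 there were 5 in MHCC97L-Src and 3 in MHCC97L-Oxa, beside 29.5% and 22.4% of all genes. DESeq2 called 3 and 0, beside 17.6% and 7.4%. By the looser rule 5 were lower in MHCC97L-Src and 2 in MHCC97L-Oxa, beside 18.9% and 11.5% of all genes, and 0 were higher. With the correction KAT5, an acetyltransferase, was called lower in MHCC97L-Oxa, beside 6.49% of all genes. Of 16 genes that p21 represses through the DREAM complex, all were tested and 0 passed, with 6 and 5 at an unadjusted p under 0.05 (beside 29.5% and 22.4% of all genes) and 5 and 1 called by DESeq2 (beside 17.6% and 7.4%). Of the fold changes, 12 were negative in MHCC97L-Src and 14 in MHCC97L-Oxa, beside 57.3% and 60.8% of all genes. Their median log2 fold changes were -0.44 and -0.39, and by the looser rule 6 and 3 were lower, beside 18.9% and 11.5%. With the correction CDC20 and MYBL2 were called lower in MHCC97L-Src, and AURKA, CDC25A and FOXM1 in MHCC97L-Oxa, beside 5.17% and 6.49% of all genes.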

How the data were processed

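The authors trimmed and aligned the reads of poly(A)-selected, stranded libraries, and the submitters' processing notes name Trimmomatic 0.36, HISAT2 2.2.1.0 and the build GRCh38.p12. The counting program and its use of strand are not given in the sources used here. The authors deposited raw counts per gene and FPKM values for 20030 genes in 9 libraries. Members and lists were chosen with earlier results of these data known. Exons of 10 of the 34 members overlap a gene on the other strand and those of 3 a gene on the same strand in GENCODE release 29, which gave the coordinates.

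Each pair of lines (6 libraries) was fitted with edgeR (quasi-likelihood, two-sided, on the deposited counts) using filterByExpr (minimum count 10), TMM and Benjamini-Hochberg adjustment over all genes tested. An SE is the size of the log2 fold change over the root of edgeR's F. CPM values use total counts without TMM. A floor of 3 counts covers counting error only. GC content and length came from the longest GENCODE transcript of 19343 genes; the correction used natural splines with 5 degrees of freedom each. Alternatives were DESeq2, other scalings and filters, the replicate block, all 9 libraries in one fit, limma-trend on FPKM (log2, with 1 or 0.1 added), the correction, the looser rule and leaving out each library. Every library value is given for CDKN1A, MDM2 and members called by either rule against MHCC97L; genes of other lists are named where called against MHCC97L, at most 3 per list. One further gene of that rule and 1 gene of the marker lists are not reported here. Other genes were named after their values were seen. The fits were tested on simulated counts with 200 changed genes. Fits ran in R 4.3.3 with DESeq2 1.42.0, limma 3.58.1 and edgeR 4.0.16. Summaries and plots used Python 3.11.15 with matplotlib 3.10.9, SciPy 1.17.1 and pandas 2.3.3.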

Additional observations from a re-analysis of the deposited data

Results flagged for a closer look

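The following 4 genes, from the lists of p53 regulators and other p53 targets, differed between the resistant lines by edgeR's quasi-likelihood test of MHCC97L-Src against MHCC97L-Oxa. This test called 556 genes, or 4.64% of all. Among the markers named above it also called CDH5 (log2 fold change 4.61, adjusted p = 1.70e-05), KRT18 (0.91, adjusted p = 0.00471) and KRT8 (0.87, adjusted p = 0.0136), all higher in MHCC97L-Src. GDF15 was higher in MHCC97L-Src, with a log2 fold change of 0.95 ± 0.14 (adjusted p = 0.00437). CES2, a carboxylesterase that activates prodrugs, was higher by 0.58 ± 0.12 (adjusted p = 0.0284), with 1248 to 1326 counts in MHCC97L-Src and 901 to 1006 in MHCC97L-Oxa. STEAP3, a metalloreductase of iron uptake, had a log2 fold change of -1.06 ± 0.12 (adjusted p = 8.08e-04), with 1397 to 1475 counts against 3176 to 3409. PPP1R13L, the inhibitory ASPP protein that binds p53, had -0.50 ± 0.12 (adjusted p = 0.0434), with 1214 to 1320 counts against 1935 to 1989. With all 9 libraries in one fit the calls of all 4 were lost (adjusted p = 0.0819, 0.44, 0.0531 and 0.642), and leaving out 1 library ended those of CES2 (adjusted p up to 0.194) and PPP1R13L (up to 0.229), in 4 and 5 of the 6 fits. CES2, STEAP3 and PPP1R13L were named after their values were seen.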

How the results depend on the processing

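The number of members called in MHCC97L-Src against MHCC97L, 0 as reported, was 3 by DESeq2's Wald test and with the correction for GC content and length, and 2 with all 9 libraries in one fit. These settings called 17.6%, 10.7% and 16% of all genes. The number was 1 with DESeq2 size factors, without a filter and on log2(FPKM + 0.1), beside 2.58%, 4.63% and 3.96% of all genes. By the looser rule it was 5, all lower, beside 18.9% of all genes. In MHCC97L-Oxa against MHCC97L, also 0 as reported, the number was 3 by DESeq2, with all 9 libraries and by the looser rule. It was 1 on log2(FPKM + 1) and log2(FPKM + 0.1) with a filter, and 7 with the correction. DESeq2 called 7.4% of all genes, the fit of all 9 libraries 4.05%, the FPKM settings 3.73% and 3.69%, and the correction 13%. By the looser rule 4.63% of all genes were higher and 11.5% lower. Between the resistant lines the number of members was 4 with the correction, beside 9.69% of all genes. It was 0 by the other settings that keep all libraries, which called 0.703% to 7% of all genes. Leaving out 1 library at a time gave 0 to 10, 0 to 10 and 0 to 5 members in these comparisons. Those fits called 0.18% to 27.8%, 0.0163% to 22.1% and 1.38% to 13.3% of all genes. The cause of these changes was not tested. Over all genes, the 256 calls in MHCC97L-Src against MHCC97L, 115 in MHCC97L-Oxa against MHCC97L and 556 between the resistant lines were 1278, 1555 and 1153 with the correction and 2114, 893 and 839 by DESeq2, and they ranged over the alternatives from 22 to 3419, from 2 to 2705 and from 86 to 1617.

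The deviations of same-numbered libraries had mean correlations of -0.0877, 0.0315 and -0.115 in these comparisons. The single correlations ran from -0.65 to 0.444, so these means cannot decide whether the numbers pair the libraries. The fits as reported did not pair them. With the replicate block, 1 member (PLK2) was called in MHCC97L-Src, where 988 genes (8.21%) were, against 256 without it. In MHCC97L-Oxa and between the resistant lines 0 members were called, beside 0.763% and 3.39% of all genes. The block ended the calls of BBC3 in MHCC97L-Oxa (adjusted p = 0.0741) and, between the resistant lines, of CES2 and PPP1R13L (0.0814 and 0.103). With the block and the correction together, 2 members were called in MHCC97L-Oxa (CDKN1A and TP53I3), beside 5.09% of all genes. In MHCC97L-Src and between the resistant lines 0 were called, beside 1.88% and 3.94%.

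Some log2 fold changes without a call turned. With the correction, without and with the block, CCNG1 in MHCC97L-Oxa stood at 0.14 and 0.13, BLOC1S2 in MHCC97L-Oxa at 0.03 and 0.05, and APAF1 in MHCC97L-Src at 0.01 and 0.03. ZMAT3 stood at 0.19 and 0.19 in MHCC97L-Src and at 0.11 and 0.10 in MHCC97L-Oxa. FBXO22 between the resistant lines was 0.01 with the correction and the block. Leaving out 1 library at a time gave -1.17 to 0.05 for CCNG1, -1.32 to 0.01 for PPM1D, -1.38 to 0.02 for ZMAT3 and -1.0 to 0.05 for BLOC1S2 in MHCC97L-Oxa. PLK2 was lower and CDKN1A higher than in MHCC97L under each of 18 alternatives in both resistant lines.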
